A study of Mus musculus with 3 samples.

Results

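NK_cell_1 is a natural killer (NK) cell cluster of the mouse kidney, and its members are the cells that carry this name in the cluster column of the deposited count table. They number 606 of 20266 immune cells (2.99%) in a table with 23 clusters. The kidneys came from wild-type animals with no treatment and were dissected into cortex, an outer part of the medulla (OM) and an inner part (IM). Per the methods of the study the animals were adult male C57BL/6J mice whose kidneys were perfused with PBS, cut into the compartments, digested with collagenase and DNase and sorted for live CD45+ cells. Droplet-based single-cell RNA sequencing was run at 3 facilities (Aachen, Bonn and Hamburg). Each compartment at each facility is treated here as a library (9 in all), with the facility as the replicate. Whether the compartments of a facility were run separately is not stated in the sources used here. The sources used here do not say how many animals stand behind a library or whether they were pooled. The p-values below rest on how far compartment differences within a facility repeat across facilities.

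NK cells are innate lymphocytes that kill infected or transformed cells with perforin and granzymes and that secrete interferon-gamma and chemokines without prior sensitisation. They read their targets through activating and inhibitory receptors, many of which are lectin-like proteins encoded side by side in the NK gene complex, and a cell is held back when its inhibitory Ly49 receptors meet MHC class I. In mice, circulating NK cells mature from a CD27+ to a CD11b+ stage under the factors Eomes and T-bet, whereas tissue-resident group 1 innate lymphocytes keep markers such as CXCR6 and CD49a. The kidney is known to hold both kinds. Group 2 innate lymphoid cells (ILC2s) and T cells, the other clusters compared here, use GATA3 and the T cell receptor complex, respectively.

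The libraries of NK_cell_1 were uneven. In cortex, OM and IM, Aachen gave 23, 65 and 95 cells, Bonn 155, 7 and 28 cells, and Hamburg 57, 101 and 75 cells. The summed unique molecular identifiers (UMIs, counted molecules) ranged from 19072 in Bonn OM to 552875 in Bonn cortex. The median depth per cell was 809 UMIs at Aachen, 3047 UMIs at Bonn and 3541 UMIs at Hamburg. Aachen cells were therefore shallow and Bonn OM held few cells. Scrublet marked 348 of the 20266 cells (1.72%) as doublets, 13 of them in NK_cell_1. It marked 0.154% of the Aachen and 0.287% of the Hamburg cells against 5.15% in Bonn. Whether it missed doublets in Aachen and Hamburg was not tested, and doublets were not removed. Libraries of different facilities shared 196 cell barcodes, 1 of them within NK_cell_1, and libraries of 1 facility shared 29, 0 of them within NK_cell_1. Pairs of libraries within Aachen or Bonn shared 1 to 8 barcodes and pairs within Hamburg 0, against 0 to 16 between facilities. Whether the Hamburg compartments were separate runs was not tested.

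The 3 genes that mark the cluster were checked first. Ncr1 (NKp46, an activating receptor of NK cells and some other innate lymphocytes) summed to 541, 1487 and 804 CPM (counts scaled to the same total for each cluster and facility) in Aachen, Bonn and Hamburg. The 4 T cell clusters, summed, held 6.58, 6.20 and 6.14 CPM of Ncr1, and ILC2 held 9.99, 0 and 3.48 CPM. NK_cell_1 lay above both in every facility. Klre1 (an NK receptor that pairs with KLRI proteins) summed to 892, 998 and 569 CPM, and Gzma (granzyme A, a protease of cytotoxic granules) to 10229, 13323 and 8019 CPM. Genes of the T cell receptor complex were low. Cd3e stood at 0, 39.8 and 64.4 CPM against 491, 1152 and 999 CPM in the T cells. The ILC2 receptor gene Il1rl1 reached 5.95, 0 and 3.31 CPM against 205, 313 and 313 CPM in ILC2. The name of the cluster therefore fits its defining markers, and since clusters were drawn from these same genes, every comparison of clusters below is a description with no test.

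The cluster also held traces of other cells. Of its 606 cells, 235 (38.8%) carried at least 2 UMIs of T cell, B cell, macrophage or neutrophil marker genes or were marked as doublets. They were 20 of 183 cells in Aachen (10.9%), 70 of 190 in Bonn (36.8%) and 145 of 233 in Hamburg (62.2%), by a rule of a fixed number of UMIs in facilities of unequal depth. Without them, Hamburg cortex kept 16 of 57 cells and Bonn OM 4 of 7. The UMIs of some myeloid genes were concentrated in few cells. Apoe, a lipid carrier of macrophages, had 527 UMIs in 61 cells, of which 76.9% came from 10 cells, and Cd74, the invariant chain of antigen-presenting cells, had 4924 UMIs in 133 cells, of which 57.2% came from 10 cells. Haemoglobin and other red blood cell markers were at 0 in every library. Values without the 235 cells accompany the counts of genes below.

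NK_cell_2, the other NK cluster, was the nearest neighbour of NK_cell_1 in Bonn and Hamburg. Pearson's r of the log2 levels across genes was 0.906 and 0.921 there. In Aachen T_cell_2 came first with 0.846 and NK_cell_2 was next with 0.831. These r run across genes, which are not replicates, and the clusters of a facility share its libraries and depth.

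Some NK receptors and factors overlapped between the NK clusters and others did not. Ncr1 stood at 658, 1425 and 1068 CPM in NK_cell_2. Klrk1 (NKG2D, an activating receptor) stood at 1088, 1142 and 592 CPM in NK_cell_1 and at 1200, 1357 and 771 CPM in NK_cell_2, lower in NK_cell_1 in each facility. Tbx21 (T-bet, the factor shared by group 1 lymphocytes) stood at 131, 456 and 278 CPM and at 95.1, 375 and 287 CPM. The ranges of the clusters overlapped for these 3 genes. Klrc1 (NKG2A, an inhibitory receptor) stood at 434, 502 and 484 CPM in NK_cell_1 against 1039, 1052 and 973 CPM, and Klrb1b, a C-type lectin-like receptor, at 95.2, 129 and 208 CPM against 373, 673 and 637 CPM. Klri2, an NK receptor chain, stood at 250, 317 and 236 CPM against 102, 105 and 75.7 CPM. For these 3 receptors the clusters did not overlap. Among 3995 genes that averaged at least 20 CPM over both clusters in each facility, 51 (1.28%) were at least 2-fold higher in NK_cell_1 in every facility and 68 (1.7%) at least 2-fold lower, on a scale of log2(CPM + 2). Without NK cells of mixed identity these counts were 46 and 90. Of the 13 NK identity genes at that level, 4 were higher (Eomes, Gzma, Nkg7 and Prf1) and 0 lower. Of 17 genes of activating receptors and adaptors, 3 were higher and 1 lower, and of 12 inhibitory receptors 4 were higher and 1 lower.

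Genes of the late maturation and circulating NK lists were higher in NK_cell_1 than in NK_cell_2. Of 13 late maturation genes at the level, 9 were higher and 0 lower, with a median log2 difference of 2.34 beside -0.08 over all genes. Of 8 circulating NK genes, 7 were higher and 0 lower, with a median of 3.5. The lists share members, and Cma1, Irf8, Itgam, S1pr5 and Zeb2 count among the higher genes of both. Eomes, the factor that drives NK maturation, stood at 101, 326 and 400 CPM in NK_cell_1 and at 0, 16.5 and 25.5 CPM in NK_cell_2. S1pr5, the sphingosine phosphate receptor with which NK cells leave tissues, stood at 89.2, 329 and 129 CPM against 0, 6.18 and 4.44 CPM. For both genes the lowest facility of NK_cell_1 lay above the highest of NK_cell_2. The same held for Klrg1, an inhibitory receptor of mature NK cells (118 to 234 CPM against 7.31 to 8.82 CPM), for Zeb2, a repressor that acts late in NK maturation (187 to 481 CPM against 37.1 to 52.9 CPM), and for Cma1, the protease chymase known from mast cells (160 to 398 CPM against 0 to 1.10 CPM).

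**Figure D1:**
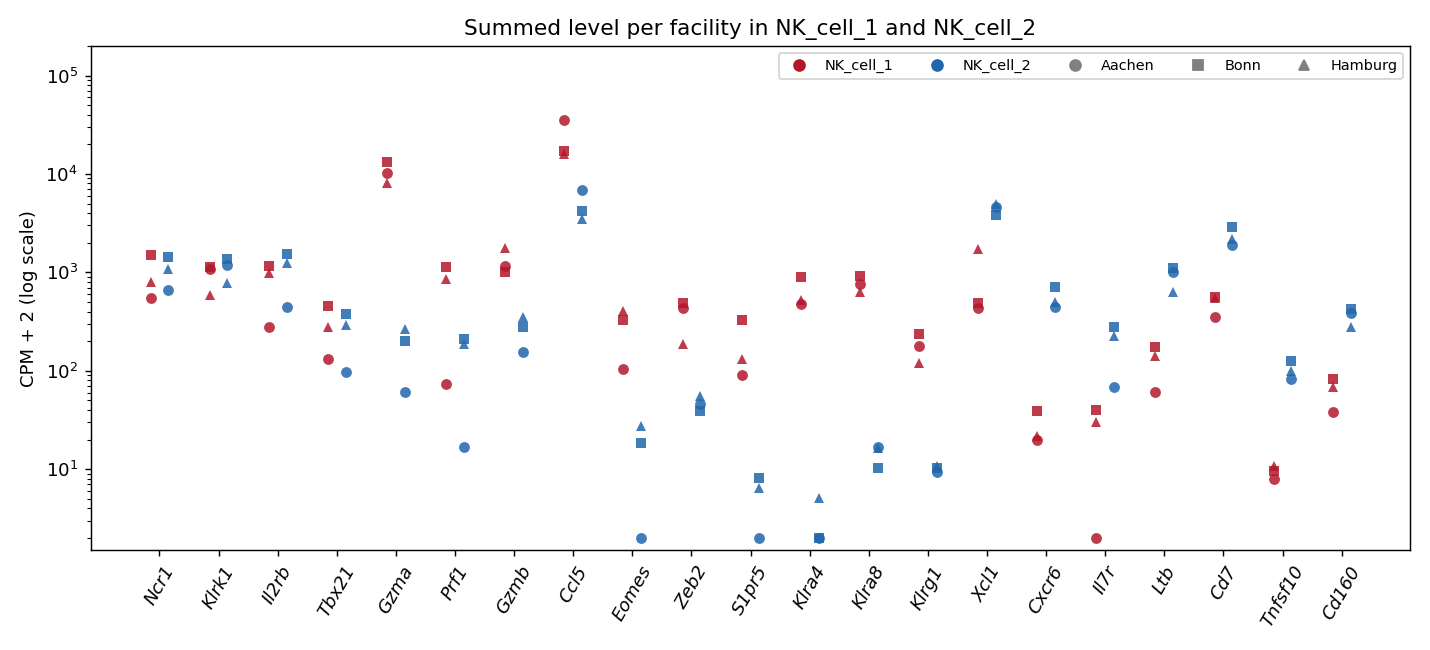
Level of 21 genes in NK_cell_1 (red) and NK_cell_2 (blue) as CPM + 2 on a log axis, 1 point per facility. The ranges of Ncr1, Klrk1, Il2rb and Tbx21 overlap between the clusters, Gzma to Klrg1 are higher in NK_cell_1 in each facility, and Xcl1 to Cd160 are higher in NK_cell_2 in each.

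Granule genes were higher in NK_cell_1, Gzma by the widest margin among those described here. Gzma stood at 10229, 13323 and 8019 CPM against 58.5, 200 and 266 CPM in NK_cell_2, and the log2 difference was at least 4.91 in each facility. Prf1 (perforin, the pore former) stood at 71.4, 1141 and 849 CPM against 14.6, 206 and 186 CPM, and in Aachen its level in NK_cell_1 was below that of NK_cell_2 elsewhere. Gzmb (granzyme B) stood at 1148, 995 and 1784 CPM against 154, 276 and 352 CPM. Ccl5 (RANTES, a chemokine stored by cytotoxic cells) stood at 35070, 17120 and 15934 CPM against 6942, 4195 and 3512 CPM. Of 15 cytotoxic effector genes at the level, 5 were higher in every facility (Cst7, Gzma, Gzmb, Nkg7 and Prf1) and 1 was lower, Tnfsf10 (TRAIL, a death ligand of tissue-resident lymphocytes), at 5.95, 7.66 and 8.69 CPM against 80.5, 124 and 96.8 CPM. Gzma, Nkg7 and Prf1 were also counted above as NK identity genes, and Gzmb and Prf1 as late maturation genes.

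Genes of tissue residence and early maturation were low in NK_cell_1. Of 10 genes of the tissue-resident list at the level, 8 were lower than in NK_cell_2 and 0 higher, with a median of -2.53, and of 10 early maturation genes 6 were lower and 0 higher, with a median of -2.11. Il7r and Ltb count among the lower genes of both lists. Cxcr6, a chemokine receptor that retains lymphocytes in tissue, stood at 17.8, 36.7 and 19.5 CPM against 439, 702 and 503 CPM. Xcl1 (lymphotactin, which draws cross-presenting dendritic cells) stood at 434, 490 and 1714 CPM against 4623, 3854 and 4895 CPM. Il7r, the interleukin 7 receptor, stood at 0, 38.3 and 27.8 CPM against 65.8, 278 and 221 CPM. The clusters did not overlap for any of the 3. Other genes on the lower side by the rule for named genes were Ramp1, S100a4, Inpp4b, Tesc, Ikzf2, Cd226, Ltb, Tmem176a and Cd160, each at least 4-fold lower in every facility. The lists of immediate early, heat shock and interferon response genes had 0 members at least 2-fold apart in either direction in every facility, of 19, 10 and 8 at the level, which is near the 1.28% higher and 1.7% lower over all genes.

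Most of the Ly49 receptors measured were higher in NK_cell_1. Klra4 (Ly49D) and Klra8 (Ly49H) are activating receptors, and Klra3 (Ly49C) and Klra7 (Ly49G) are inhibitory. Klra8 stood at 761, 914 and 636 CPM in NK_cell_1 and at 14.6, 8.24 and 14.3 CPM in NK_cell_2. Klra4 stood at 470, 888 and 516 CPM against 0, 0 and 3.09 CPM. The clusters were far apart for both. Of 6 Ly49 genes at the level, 4 were higher in every facility (Klra3, Klra4, Klra7 and Klra8) and 0 lower. Klra9 was the exception among the abundant members, with 398, 690 and 277 CPM against 410, 309 and 151 CPM. How reads were divided within the family is uncertain, since its genes are close copies. In the reference transcripts 33.1% of the stretches of 50 bases of Klra8, 31.5% of those of Klra9 and 20.7% of those of Klra3 occur also in another gene or pseudogene, against 4.68% for Klra4.

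Ly49 receptors are known to be switched on gene by gene, so that each NK cell holds its own combination. To compare cells at 1 depth, each cell was thinned to 500 UMIs, which left out 17 NK_cell_1 cells that had fewer, all of them from Aachen. The count per cell ran over 10 Ly49 genes. In Aachen 36.1% of 166 NK_cell_1 cells held a UMI of 0 of these genes, 38.0% of 1 gene, 18.7% of 2 genes and 7.23% of 3 or more. The shares were 22.1%, 40.0%, 26.8% and 11.1% of 190 cells in Bonn and 40.3%, 36.9%, 18.5% and 4.29% of 233 cells in Hamburg. In NK_cell_2, at least 84.5% of cells held 0 in each facility. With all UMIs, 62.1% of Bonn and 46.4% of Hamburg NK_cell_1 cells held 3 or more, with a highest value of 6. The number per cell therefore depends on depth. Sequence shared within the family and doublets, which were not removed, could raise it, and their part was not tested.

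**Figure D2:**
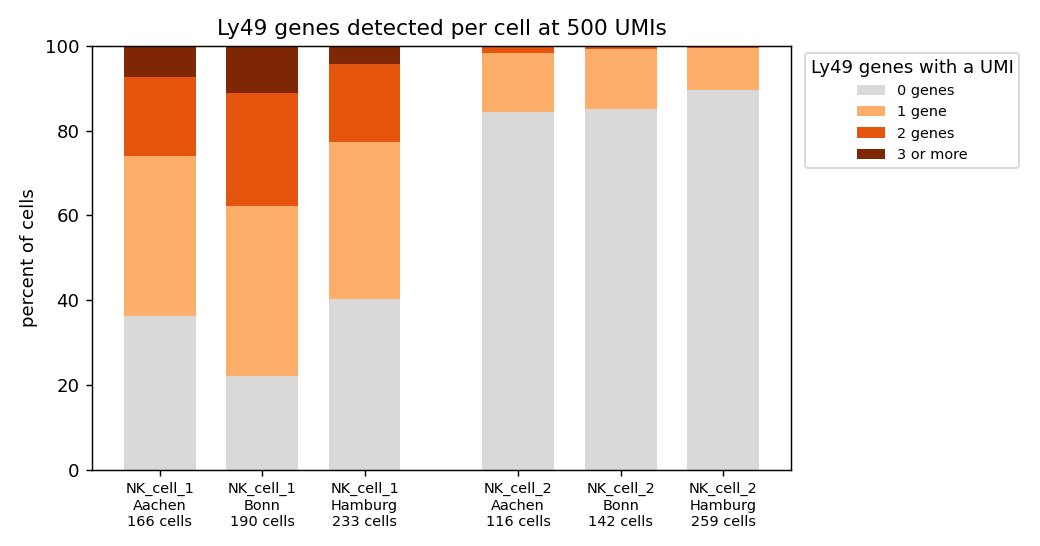
Share of cells (percent) with a UMI of 0, 1, 2 or at least 3 Ly49 genes after thinning to 500 UMIs, 1 bar per cluster and facility. NK_cell_1 cells with 0 genes make up 22.1% (Bonn) to 40.3% (Hamburg), and NK_cell_2 cells with 0 genes at least 84.5%.

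Shares of cells with a UMI lie behind these sums. At 500 UMIs, Gzma was found in 94.0% of Aachen, 92.1% of Bonn and 91.0% of Hamburg NK_cell_1 cells (97.3%, 98.9% and 98.3% without thinning). It was found in 3.45%, 2.82% and 6.18% of NK_cell_2 cells and in 5.40%, 2.55% and 2.49% of T cells. Before thinning, the median NK_cell_2 cell held 973 (Aachen), 3292 (Bonn) and 3282 (Hamburg) UMIs, and the median T cell 973, 3274 and 3396. Klra4 was found in 21.1%, 30.5% and 20.6% of NK_cell_1 cells and in 0 of 1389, 1605 and 2092 T cells, which allows up to 0.216%, 0.187% and 0.143% of T cells with a UMI at this depth (3 counts). Without thinning it was found in 25.1%, 50.5% and 47.6% of NK_cell_1 cells and in 6 of 2092 Hamburg T cells (0.287%). Ncr1 was found in 22.3%, 51.6% and 33.9% of NK_cell_1 cells and in 0.144%, 0.436% and 0.287% of T cells. It was thus far more frequent in NK_cell_1 than in T cells but not found in many cells at this depth. The level of free RNA was not estimated. Cd27 and Itgam (CD11b), which order NK maturation, were both too sparse to stage cells. With all UMIs, Itgam alone was seen in 92 and Cd27 alone in 33 of 233 Hamburg NK_cell_1 cells, 24 held both and 84 neither, whereas 8 and 79 of 259 NK_cell_2 cells held Itgam alone and Cd27 alone.

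Against ILC2, NK_cell_1 differed in more genes. Of 3878 genes, 224 (5.78%) were at least 2-fold higher in every facility and 164 (4.23%) lower, and all 13 NK identity genes at the level were higher. Nkg7, a granule protein of killer cells, stood at 5674, 4507 and 3198 CPM against 54.9, 39.5 and 48.5 CPM. Anxa2, a membrane-binding annexin, stood at 862, 1217 and 969 CPM against 4.99, 0 and 10.3 CPM. On the other side, 9 of 9 ILC2 markers at the level were lower. Gata3 stood at 65.4, 75.0 and 59.0 CPM against 619, 711 and 831 CPM. Areg (amphiregulin, an epithelial growth factor of ILC2s) stood at 5.95, 1.53 and 0 CPM against 624, 332 and 2279 CPM. Arg1 and Il4 were at 0 in the 3 facilities of NK_cell_1 and between 69.9 and 165 CPM in ILC2. Of 18 immediate early genes, 5 were lower (Fos, Fosb, Nfkbia, Zfp36 and Zfp36l1) and 1 higher (Dusp2).

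Against the T cells, 133 of 3945 genes (3.37%) were at least 2-fold higher in every facility and 96 (2.43%) lower. The balance depended on scaling. With TMM factors, 107 were higher and 138 lower, and the median log2 difference of all genes moved from 0.13 to -0.09, as it moved from -0.08 to 0.03 against NK_cell_2. All 13 NK identity genes at the level were higher and 8 of 8 T cell markers lower. Tyrobp (DAP12, the adaptor of activating NK receptors) stood at 3895, 4402 and 3180 CPM against 250, 55.8 and 57.1 CPM. Klri2, with the levels given above, stood against 3.84, 2.85 and 1.90 CPM in T cells. Adamts14, a procollagen protease, stood at 53.5, 145 and 132 CPM against 0, 1.51 and 1.90 CPM, and Tnfsf12 (TWEAK) at 83.3, 170 and 121 CPM against 2.74, 2.18 and 1.43 CPM. Among the lower genes were Cd8b1, Cd40lg, Cd5, Cd6, Themis and Sit1, which belong to T cell recognition and signalling.

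Several of these genes lie together in the genome. Klre1 lies on the plus strand of chr6:129577905-129585827 (GRCm38), and the protein-coding genes from Klrb1a to Klra1 around it, the NK gene complex, span chr6:128609227-130386874. This stretch of 1.78 Mb holds 42 protein-coding genes, 41 of them in the table, and 17 reached 50 CPM in NK_cell_1 in every facility. The share of all genes at that level was not computed. Of the 12 genes named as highest against each cluster, 4 lie in it for NK_cell_2, 7 for ILC2 and 6 for the T cells. Of the 12 named as lowest, 0 do in each comparison. With 42 of 21923 protein-coding genes in the stretch, 0 of 12 is unremarkable. Klrb1b and Klrc1 also lie in it and were lower than in NK_cell_2 in each facility. Ncr1 (chr7:4337724-4345164, plus strand) and Gzma (chr13:113093825-113100981, minus strand) lie elsewhere.

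The share of NK_cell_1 among the immune cells was compared between compartments over the 3 facilities. For Aachen it was 1.65% of the cortex, 1.77% of the OM and 4.58% of the IM cells. The same shares were 4.23%, 1.13% and 1.49% at Bonn, and 2.33%, 4.11% and 3.65% at Hamburg. The exact 95% binomial interval of Bonn OM, with 7 cells, ran from 0.454% to 2.31%, and such intervals cover counting error only. The cortex was lowest in Aachen and Hamburg and highest in Bonn. Medulla (mean of OM and IM) minus cortex was 0.0525 ± 2.57 percentage points (SD, n = 3 facilities, exact permutation p = 0.926, two-sided, smallest possible p 0.037), with 1.52 in Aachen, -2.92 in Bonn and 1.55 in Hamburg. No direction was shared by the facilities.

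Within the NK cells, NK_cell_1 made up 34.3% in cortex, 68.4% in OM and 64.6% in IM at Aachen. At Bonn it made up 57.0%, 36.8% and 68.3%, and at Hamburg 32.4%, 60.1% and 50.7%. Bonn OM, with an interval of 16.3% to 61.6%, went against the other facilities. Medulla minus cortex was 16.9 ± 19.0 percentage points (SD, n = 3, exact permutation p = 0.185, two-sided, smallest possible 0.037). IM exceeded cortex in 3 of 3 facilities, by 19.96 ± 9.61 points (exact permutation p = 0.148, smallest possible 0.00463). Neither difference passed a p of 0.05.

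**Figure D3:**
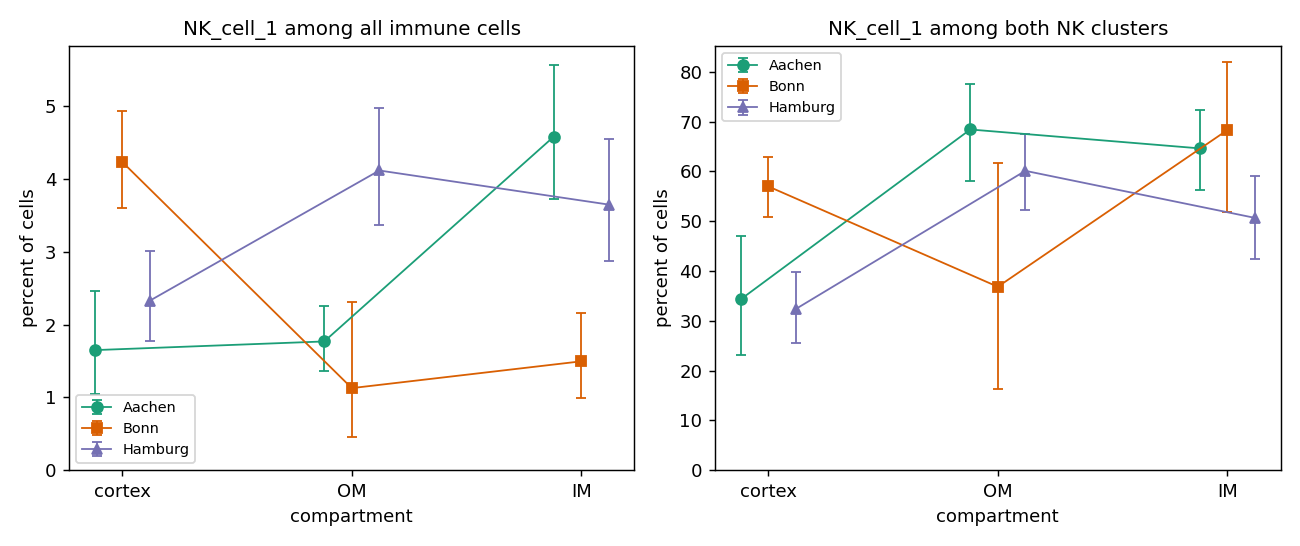
Share of NK_cell_1 (percent of cells) among all immune cells (left) and among NK_cell_1 and NK_cell_2 cells together (right) by compartment, 1 point per library with its exact 95% binomial interval and lines joining a facility. Bonn runs opposite to Aachen and Hamburg from cortex to OM in both panels.

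Levels of genes within NK_cell_1 were then compared between compartments on summed counts with the facility as block. Of 1680 genes tested by edgeR's quasi-likelihood test, 0 (0.0%) passed a Benjamini-Hochberg adjusted p of 0.05 in medulla against cortex, in OM against cortex, in IM against cortex or in OM against IM. At an unadjusted p under 0.05 there were 49, 50, 40 and 35 genes, and DESeq2 called 0 in each with 16, 24, 12 and 14 genes under 0.05. The median gene had a 95% interval of ± 0.54 (medulla against cortex) to ± 0.66 (OM against cortex) on the log2 scale, taken gene by gene without adjustment. For a gene with such an interval, smaller differences could not be told from 0. Genes with smaller standard errors had narrower intervals, and larger differences could also miss the adjusted threshold, as genes named below did. The counts of passing genes changed with the libraries and genes that entered. Without Bonn OM, the library of 7 cells, 5, 3, 11 and 11 genes passed in the 4 contrasts, and 3458 genes were then abundant enough to test. Without a filter on low counts 8, 7, 10 and 8 of 13419 genes passed. Over 19 distinct alternatives 39 genes (0.291% of the 13419) passed at least once. Among them were 6 of 12 macrophage markers (Apoe, C1qa, C1qb, C1qc, Cd14 and Lyz2) and 4 of 7 detected dendritic cell markers (Cd74, H2-Aa, H2-Ab1 and H2-Eb1). Other cell types added 2 of 5 detected neutrophil markers (S100a8 and S100a9), 1 of 10 B cell markers (Cd79a) and 1 of 7 detected kidney tubule markers (Kap). Further ones were 3 of 12 heat shock genes (Bag3, Dnajb1 and Hspb1) and 3 of 13 cytokines and chemokines (Ccl3, Ccl4 and Xcl1). Early maturation genes gave 2 of 12 (Thy1 and Xcl1) and immediate early genes 1 of 20 (Dusp2). The tissue-resident and the trafficking list, of 16 genes each, both held Cxcr6. The lists of NK identity, cytotoxic, activating receptor, inhibitory receptor, late maturation and circulating NK genes, with 77 detected members, held 0, near the share over all genes. The most frequent, each passing under at least 8 alternatives in a contrast, were Cxcl2, Il1b, Hspb1, Wfdc17, Igkv10-96 and Xcl1. Without the 235 cells of mixed identity, 1 gene (AY036118) passed in medulla against cortex and 0 in the other contrasts.

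The marker genes of the cluster differed little between compartments. Ncr1 stood at 770, 707 and 643 CPM (scaled by TMM, as are all levels per library below) in cortex, OM and IM in Aachen, at 1215, 1412 and 1395 in Bonn and at 641, 813 and 815 in Hamburg. Gzma stood at 11294, 13515 and 13155 CPM in Aachen, at 11021, 11964 and 11734 in Bonn and at 7141, 8280 and 7384 in Hamburg. The fitted log2 difference of medulla from cortex was 0.19 ± 0.17 (SE) for Ncr1, 0.16 ± 0.11 for Gzma and 0.11 ± 0.18 for Klre1, each with an edgeR adjusted p of 0.999. After thinning each cell to 500 UMIs these were -0.10, -0.018 and -0.22, so their direction was not stable. Facilities differed more than compartments, with Ncr1 highest in Bonn and Gzma lowest in Hamburg.

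A few genes had the smallest p and did not pass. Zeb2, the late maturation repressor, stood at 471, 758 and 443 CPM in cortex, OM and IM in Aachen, at 386, 748 and 423 in Bonn and at 118, 245 and 146 in Hamburg. OM was the highest compartment in each facility. The fitted difference of OM from cortex was 0.94 ± 0.20 (SE, log2; edgeR adjusted p = 0.454, higher in 3 of 3 facilities), and that of OM from IM was 0.79 ± 0.19 (adjusted p = 0.726). Bonn OM rests on 18 UMIs of Zeb2 in 7 cells.

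S1pr5 stood at 42.8, 101 and 143 CPM in Aachen, at 255, 540 and 349 in Bonn and at 98.0, 167 and 93.0 in Hamburg. OM was above cortex in 3 of 3 facilities, by 0.92 ± 0.29 (edgeR adjusted p = 0.99975), and IM in 2 of 3. The Aachen values are 1, 4 and 10 UMIs. Itga4, the integrin subunit with which lymphocytes bind VCAM-1, was also above cortex in OM in 3 of 3 facilities, by 0.73 ± 0.23 (adjusted p = 0.99975).

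Irf7, the interferon regulatory factor of antiviral responses, stood at 42.8, 101 and 100 CPM in Aachen, at 49.8, 125 and 106 in Bonn and at 102, 196 and 198 in Hamburg. Both parts of the medulla lay above the cortex in each facility, by 1.02 ± 0.26 (SE, edgeR adjusted p = 0.999). The Aachen cortex value is 1 UMI in 1 cell, and Aachen OM and IM and Bonn OM and IM rest on 3 to 10 UMIs each. It is 1 of 2 genes of the interferon response list of 17 that were abundant enough to test. Serpinb6b, a serpin of the family of protease inhibitors, was higher in medulla in 3 of 3 facilities by 0.67 ± 0.19 (adjusted p = 0.999), and Fth1 (ferritin heavy chain) lower in 3 of 3 by -0.66 ± 0.19 (adjusted p = 0.999). With a library or facility left out the Fth1 value ran from -0.36 without Aachen cortex to -1.03 without Hamburg, where it passed (adjusted p = 0.0054), and without the cells of mixed identity it was -0.067. The other 6 of the 10 genes with the smallest p in medulla against cortex were AY036118, Atp6v1g1, Thy1, Aurkaip1, Lrrc58 and Srsf10. AY036118 had 0 UMIs in every Aachen library. Thy1, a surface glycoprotein of T cells and young NK cells, differed by -0.96 ± 0.31, with the sign shared by 2 of 3 facilities. It passed without Aachen (-1.10, adjusted p = 0.023), and with a library or facility left out it ran from -0.58 without Bonn to -1.49 without Hamburg cortex, neither of which passed.

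**Figure D4:**
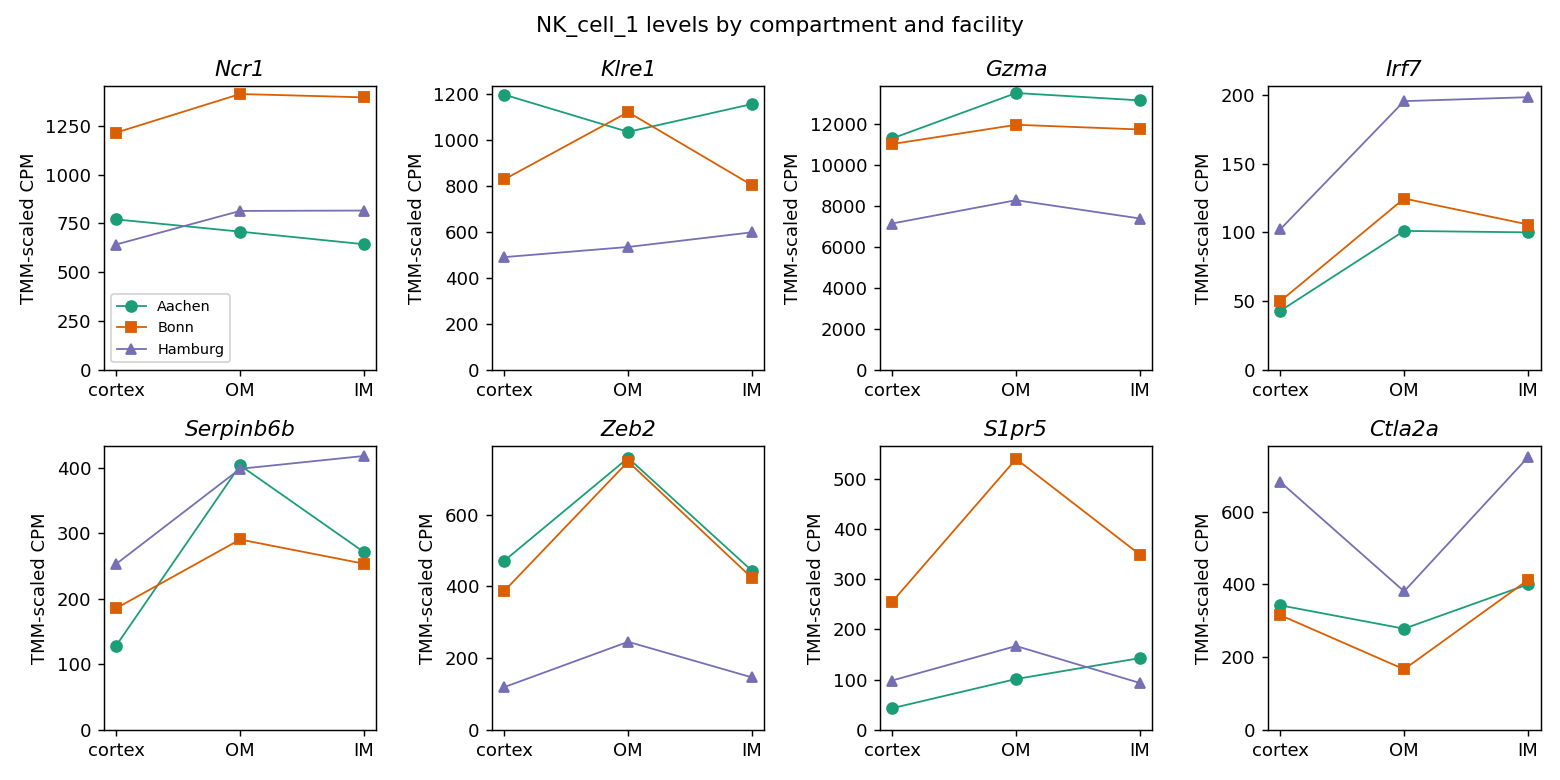
TMM-scaled CPM of 8 genes in NK_cell_1 by compartment, 1 line per facility and 1 point per library, each vertical axis starting at 0. Irf7 and Serpinb6b lie above the cortex in OM and IM of all 3 facilities, Zeb2 peaks and Ctla2a dips in OM in all 3, and none of the 8 passed the adjusted test.

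Some genes of the early maturation list were lowest in OM without passing the test. Ctla2a, an inhibitor of cathepsin-like proteases, stood at 342, 278 and 400 CPM in cortex, OM and IM in Aachen, at 315, 166 and 412 in Bonn and at 682, 381 and 750 in Hamburg, lowest in OM each time. OM was below IM by -0.94 ± 0.23 (edgeR adjusted p = 0.726). Xcl1 stood at 152 and 728 CPM in OM and IM in Aachen, at 0 and 1438 in Bonn and at 1231 and 1770 in Hamburg. OM was below IM in 3 of 3 facilities, by -1.73 ± 0.51 (adjusted p = 0.9997). This value passed in 8 of 19 alternatives. With a library or facility left out it ran from -3.55 without Hamburg (adjusted p = 1.1e-08) to -0.92 without Bonn (adjusted p = 0.151). It was -1.07 without Bonn IM, and without the cells of mixed identity -0.56 (adjusted p = 0.998). In Bonn IM 70 of 136 Xcl1 UMIs came from 1 cell, and NK_cell_2 holds the gene at a higher level, and the part of either in the difference was not tested.

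Taking the gene lists as wholes, 0 members of any list were called between compartments. In medulla against cortex, 11 of 14 NK identity genes had a positive and 3 a negative difference, with a median of 0.10 beside 0.01 over all genes. In OM against cortex, 6 of 7 early maturation genes were negative, with a median of -0.68, and 9 of 11 late maturation genes positive, with a median of 0.22 beside 0.00 over all genes. In IM against cortex the same lists had 4 of 7 negative (median -0.09) and 4 of 11 positive (median -0.05). Immediate early and heat shock genes, which dissociation is known to raise, had medians of -0.06 (20 genes) and -0.14 (10 genes) in medulla against cortex. Markers of other cells had larger medians. In medulla against cortex, 4 of 5 macrophage markers tested were negative, with a median of -0.75, and 4 of 4 dendritic cell markers, with a median of -0.62. In IM against cortex the medians were -1.29 and -1.02, all 9 genes were negative, and 1 macrophage and 2 dendritic cell markers had an unadjusted p under 0.05.

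Stress genes and genes of other cells varied between the libraries. Immediate early genes summed to 14887, 7211 and 12984 CPM in cortex, OM and IM in Aachen, to 3578, 5034 and 5344 in Bonn and to 29233, 27369 and 25299 in Hamburg, and the T cells of each library followed the same order of facilities. Macrophage markers summed to 8451, 4098 and 628 CPM in Aachen, to 1069, 157 and 98.5 in Bonn and to 814, 1449 and 1355 in Hamburg. They were lower in IM than in cortex in Aachen and Bonn and higher in Hamburg, and 156 of the 157 Apoe UMIs of Aachen cortex sat in 1 cell. Dendritic cell markers ranged from 105 CPM in Bonn OM to 8373 CPM in Aachen OM. The part of such cells in the compartment differences of NK genes was not tested beyond leaving out the cells of mixed identity. Dendritic cell markers were not part of the rule for mixed identity.

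**Figure D5:**
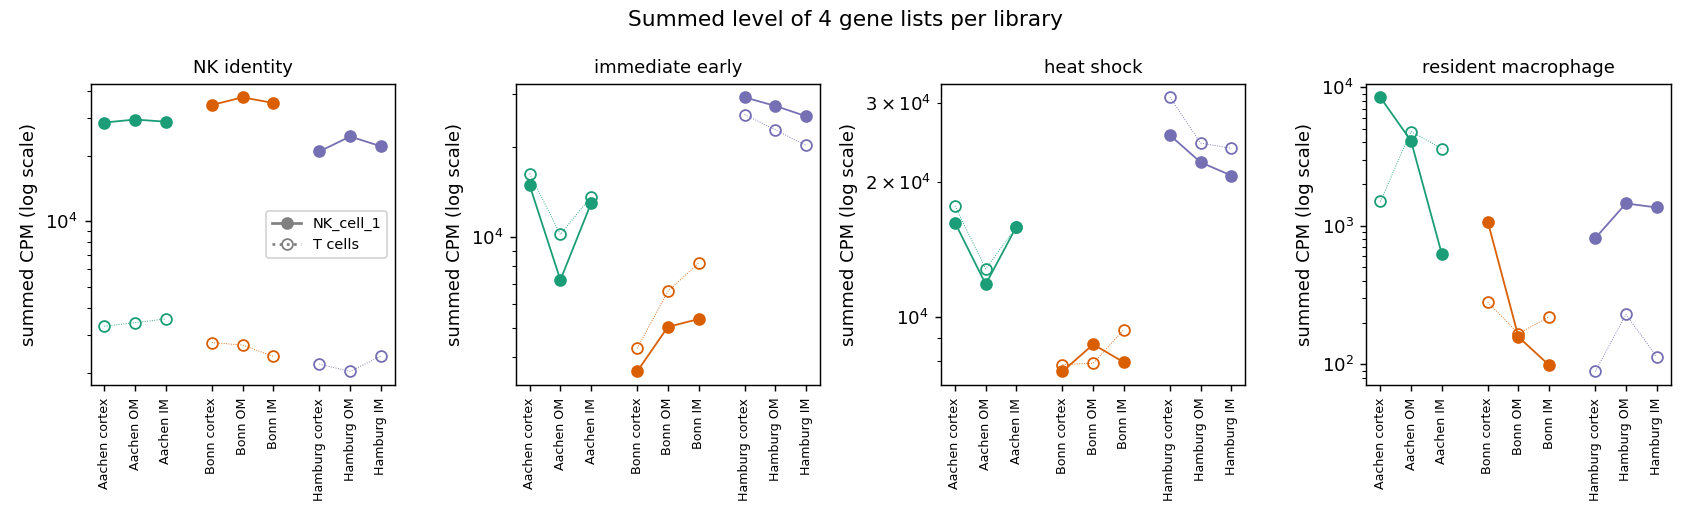
Summed CPM (log axes) of 4 gene lists in the 9 libraries, coloured by facility, in NK_cell_1 (filled points, solid lines) and in T cells (open points, dotted lines). NK identity genes separate the clusters in every library, immediate early and heat shock genes are highest in Hamburg in both, and macrophage markers range from 98.5 to 8451 CPM in NK_cell_1.

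Whether a medulla effect differed between NK_cell_1 and another cluster was tested as an interaction. Against NK_cell_2, 0 of 2137 genes (0.0%) passed with edgeR, with 64 at an unadjusted p under 0.05. Against the T cells 1 of 6997 genes (0.0143%) passed, Cxcl2, a neutrophil chemokine of myeloid cells, with a log2 difference of 5.60 ± 0.86 (SE, adjusted p = 0.00021). DESeq2 was not run on these interactions. Cxcl2 had 165 UMIs in 23 NK_cell_1 cells, 98 of them in Hamburg OM and 64 in Hamburg IM, and 95.3% came from 10 cells. Without the cells of mixed identity 0 genes passed and the Cxcl2 value was 0.67 (adjusted p = 1), without Hamburg it was 3.85 (adjusted p = 1), and without the facility block 0 genes passed. Cxcl2 was not among the 2137 genes tested against NK_cell_2, with or without the cells of mixed identity. Without the filter on low counts it passed there too, at 7.20 (edgeR adjusted p = 5.3e-09).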

How the data were processed

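Single-cell RNA sequencing covered immune cells of 3 kidney compartments. Per the study's methods and the labels, the authors mapped reads with Cell Ranger to mm10. They then used Seurat to filter cells by gene number and mitochondrial share, to integrate the data and to cluster it. The deposited values are expected counts (UMIs per gene and cell, not scaled to depth) with the compartment, cluster and facility of each cell. They are whole in Aachen and Bonn, but only 0.118% of the values above 0 are whole in Hamburg, and the correction behind this is not given in the sources used here. Of 32886 genes, 20672, 16421 and 13712 were at 0 in Aachen, Bonn and Hamburg. The authors' cluster names were kept.

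UMIs were summed per cluster, compartment and facility and rounded to whole numbers. Compartments were compared with edgeR 4.0.16 in R 4.3.3 (filterByExpr, TMM, glmQLFit, glmQLFTest, facility as block, Benjamini-Hochberg at 0.05). The fit was also run on simulated sums, which held no facility effect and so cannot show how the fit does with facilities that differ. That libraries pair by facility was checked over 1680 genes: deviations from compartment means correlated at 0.58 to 0.85 within a facility (9 pairs) and at -0.71 to 0.34 between facilities (18 pairs). Shares were compared by exact permutation of compartments within facilities. Levels of clusters are CPM per facility, with log2 differences on CPM + 2, which understates those of low genes. Genes were named between clusters as the 12 in each direction with the largest difference in their least different facility and a level of at least 50 CPM in the higher cluster, and between compartments as all called genes or, where fewer than 10 were called, those with the smallest p up to 10. Not every gene that these rules name is reported here. Shares of cells used cells thinned to 500 UMIs, with exact (Clopper-Pearson) intervals. A share of 0 allows up to 3 counts. Doublets were marked with Scrublet (scanpy 1.11.5). Alternatives were DESeq2 1.42.0, RLE size factors, no filter, no block, thinned cells, values rounded up, other denominators and leaving out cells of mixed identity, small libraries, each library or each facility. Positions come from GENCODE vM21 (GRCm38). Members and gene lists were chosen with earlier results of these data known, so counts over lists are descriptions. The lists of transcription factors, cytokines, trafficking receptors, cytokine receptors, osmotic response, hypoxia, cell cycle and further marker cells had 0 called members between compartments.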

Additional observations from a re-analysis of the deposited data

Results flagged for a closer look

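The medulla effect on Cxcl2 differed between NK_cell_1 and T cells by 5.60 on the log2 scale in the test of the interaction (edgeR adjusted p = 0.00021), a value that rests on 162 of 165 UMIs from Hamburg OM and IM.

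The share of NK_cell_1 among all immune cells moved in opposite directions in single facilities. Medulla minus cortex was -2.92 percentage points in Bonn, where both OM and IM were below the cortex, and 1.55 points in Hamburg, where both were above it. This difference between facilities was not tested.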

How the results depend on the processing

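Numbers of genes are given in the order medulla, OM and IM, each against cortex, then OM against IM. In each of the 4, 0 genes passed in the main analysis, with DESeq2, with RLE size factors, without the replicate block, with thinned cells and with values rounded up. Without a filter on low counts 8, 7, 10 and 8 passed, without libraries under 20 cells (Bonn OM) 5, 3, 11 and 11, and without cells of mixed identity 1, 0, 0 and 0. Leaving out each library or facility gave 0 to 8, 0 to 5, 0 to 11 and 0 to 13, with the highest counts without Aachen or Hamburg (8 each, medulla against cortex), without Aachen (5), without Hamburg or Bonn OM (11 each) and without Hamburg (13). For the interaction with NK_cell_2, 7 passed without the filter and 1 to 11 with a facility left out (11 without Bonn). For that with T cells, 12 passed without the filter, 0 without the replicate block, 0 without cells of mixed identity and 1 to 12 with a facility left out (12 without Bonn, 8 without Hamburg). The genes tested between compartments changed as well, from 1680 in the main analysis to 5121 without Aachen, 3032 without Bonn, 3458 without Bonn OM and 1314 without Hamburg. A count under an alternative can therefore include genes that the main analysis did not test. The cause of these changes was not tested.

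The share among all immune cells was -0.399 points for OM minus cortex, and leaving out a facility gave -0.697 to 1.54 points (-0.683 without Aachen, -0.697 without Hamburg, 1.54 without Bonn). The share among NK cells ranged from 9.30 to 27.6 points (9.30 without Aachen, 27.6 without Bonn). Of 378 alternative values for 21 named gene results, 361 kept direction and side of the threshold, 13 newly passed (Thy1, Fth1 and Xcl1), 0 were lost and 4 changed direction. These were Ncr1, Gzma and Klre1 with thinned cells (-0.10, -0.018 and -0.22) and Klre1 without cells of mixed identity (-0.040). Depth limits the Aachen libraries, whose NK_cell_1 sums held 28280 to 89112 UMIs, and Bonn OM, with 19072.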
